A study of Mus musculus with 36 samples.

Results

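Oocytes hold most of their messenger RNA in store, and 35 genes that keep, silence, shorten or destroy this RNA were followed in single mouse oocytes labelled Drp1_KO or Drp1_WT. They were chosen by name for their function, by a rule that uses no expression values but was written with earlier results of these data known, and all 35 were found among the 21968 genes of the count table by matching Ensembl IDs to symbols of GENCODE M21 on the GRCm38 build. Each library is labelled as 1 oocyte at the germinal vesicle stage, when the oocyte is still arrested in prophase of meiosis. There are 18 oocytes from 4 mice (a to d) with the genotype label Drp1_KO and 18 from 5 mice (1 to 5) with the label Drp1_WT. Drp1, encoded by Dnm1l, is the GTPase that divides mitochondria. The labels give no strain, age, deleted exon or Cre driver, and no treatment. Each mouse gave 3 to 5 oocytes and counted as 1 replicate. The question put to these genes is whether the stored RNA's handling machinery differs at the transcript level between the labels, and how it varies among mice and oocytes.

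As background, a growing oocyte transcribes heavily and then falls silent, so that maturation and the start of embryonic life run on RNA made earlier. Stored mRNAs carry short poly(A) tails and are bound by Y-box proteins, ZAR1, CPEB1 and the DDX6, LSM14 and 4E-T repressors, which keep them from ribosomes and from decay. On maturation, CPEB1 and DAZL direct the lengthening of the tails of selected mRNAs, some of which encode the decay machinery itself, while BTG4 brings the CCR4-NOT deadenylase to others. Removal of the tail is followed by decapping through DCP1A and DCP2 and by digestion from the capped end through XRN1.

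The libraries held 3178509 to 7406895 counts each, with 11350 to 14659 genes detected. Levels per oocyte are CPM, a library's counts scaled to a fixed total. Lengths of poly(A) tails were not measured, and any effect of them on the counts was not tested. Tube numbers are those in the sample titles. Levels per mouse are CPM of summed counts scaled with TMM factors. Dnm1l, the labelled target, stood at 207 ± 15.8 against 239 ± 69.2 CPM (SD, n = 4 Drp1_KO and 5 Drp1_WT mice; log2 fold change -0.21, SE 0.19, edgeR adjusted p = 0.706), and its count over the whole gene did not separate the labels; the deleted exon is not given, so this count need not check the deletion. In the 5 Drp1_WT oocytes of tubes 11 to 15 Dnm1l lay between 116 and 156 CPM. It lay between 234 and 322 CPM in the other Drp1_WT oocytes. The Drp1_KO oocytes ran from 144 to 274 CPM, with a median of 204 CPM. The 5 Drp1_WT libraries of tubes 11 to 15 go against their label on this measure. All libraries of mouse d and of mouse 5 come from tubes 27 to 30, and those of the other mice from tubes 1 to 15.

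The library in tube 10 of mouse b, labelled Drp1_KO, stood apart. Genes of the mitochondrial genome took 5.61% of its counts, against 0.140% to 0.669% in the other libraries. It had 11350 genes detected, against 13199 to 14659 in the others. The values of mouse b and the Drp1_KO means include it unless they are given as without tube 10, and it is shown on its own at the end. Its 12 oocyte markers summed to 1267 CPM, against 20801 to 39541 CPM in the other 35 libraries, and each of the 12 was below every other library, Figla at 0. Its 10 immune markers summed to 755 CPM, against 2.08 to 9.07 CPM elsewhere. Of the 10, 9 were above every other library, and Cd14 was at 0 in all libraries. On these markers the library goes against its label as an oocyte. Further genes of oocytes or germ cells among the 35 went both ways. Btg4 (15222 CPM), Dazl (1887 CPM) and Eif4e1b (184 CPM) were above every other library, and Zar1, Zar1l, Pabpc1l, Pabpn1l, Patl2 and Ybx2 below. Whether the library holds an intact oocyte was not tested. Granulosa and cumulus markers (14 genes) summed to 78.3 to 144 CPM in the other Drp1_KO oocytes and 91.4 to 162 CPM in the Drp1_WT oocytes. They summed to 161 CPM in tube 10, where 3 of the 14 were above every other library and 0 below. Foxl2 and Amh were at 0 there, but only 3 of the 14 had a count in all libraries. Markers of stroma, endothelium and epithelium (9 genes) summed to 25.6 to 53.97 and 24.9 to 70.3 CPM, and to 12.7 CPM in tube 10, with Cdh5 at 0 in all libraries.

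The 3′ ends of these mRNAs can hold the element that CPEB1, one of the 35 proteins, binds, and they are shown so that genes with and without it can be compared. The cytoplasmic polyadenylation element, bound by CPEB1, was searched as TTTTAT or TTTTAAT, on the sense strand, in the last 120 bases of a reference transcript of each gene. The polyadenylation signal was searched there as AATAAA or ATTAAA, and TTTTAAT can overlap it. An annotated 3′ untranslated region of at least 120 bases was found for 33 of the 35 genes, Zar1l and Cnot8 being the others. The element was present in 11 of these 33 (33.3%), against 22.1% of 10854 genes with a mean of at least 1 CPM. Windows of 30 bases in 8 of the genes, from GENCODE M21 transcripts on GRCm38, are given 5′ to 3′ in the transcript's sense, with both motifs in capitals. They were picked with the values of tube 10 known: the first 6 are of genes above the other libraries there and Cnot1 and Ybx2 of genes below, while Xrn1 (above), Ybx1 (below) and Cnot3 (within) also have the element and are not shown.
Btg4 (chr9:51119809-51119838, plus strand): TTTTATgtctttttaaaagtttgatttaca
Cnot7 (chr8:40493036-40493065, minus strand): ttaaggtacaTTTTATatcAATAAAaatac
Pan2 (chr10:128321317-128321346, plus strand): TTTTATaaAATAAAagtatTTTTATctcat
Pan3 (chr5:147548471-147548500, plus strand): TTTTAATAAAgaattgcagaAATAAActtg
Dcp1a (chr14:30527021-30527050, plus strand): TTTTAATAAAatttcaaaaccaagttttag
Lsm14a (chr7:34344658-34344687, minus strand): TTTTAATAAAggccatggAATAAAgagatc
Cnot1 (chr8:95719492-95719521, minus strand): TTTTATatatgtgagtacactgatgctgtc
Ybx2 (chr11:69941544-69941573, plus strand): TTTTATgaactgtcatgtgccacctgagcc
In Pan3, Dcp1a and Lsm14a the element runs into a polyadenylation signal, and in Cnot7 and Pan2 it stands just before such a signal. The Pan2 window holds another element after the signal. Btg4, Cnot1 and Ybx2 have no polyadenylation signal of these letters in the stretch searched. A match says only that these letters are in the window, and the ends used in these oocytes were not measured.

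Among the 34 genes that passed the filter on low counts, levels per kilobase of exon spanned over 4 orders of magnitude, with the adaptor Btg4 and 4 of the 6 storage proteins on top; the other storage proteins, Ybx1 and Ybx2, ranked 9 and 18. The values that follow are mean CPM per kilobase of exon in Drp1_WT mice, ± SD, n = 5. Btg4 led at 1566 ± 105, ahead of Zar1l at 791 ± 62.9, and no Drp1_WT mouse overlapped between these neighbours or between Zar1l and the next gene. Zar1 (254 ± 60.8), Dazl (251 ± 27.3), Cpeb1 (175 ± 40.6) and Pabpn1l (148 ± 37.7) followed, and each overlapped its neighbour. Cnot7 stood next at 94.4 ± 6.59, clear of the gene below it. A middle group from Cnot2 (63.5 ± 5.91) to Cnot6l (23.3 ± 3.09) held 13 genes whose neighbours all overlapped. Between Cnot4 (13.2 ± 1.51) and Pan2 (5.98 ± 0.892) lay Parn, Cnot3, Dcp2 and Cnot10. At the low end were Cnot1 (4.29 ± 0.422), Pan3 (2.73 ± 0.246), Cnot6 (2.62 ± 0.210), Xrn1 (1.86 ± 0.130), Ddx6 (1.78 ± 0.509), Pabpc1 (1.01 ± 0.345), Zfp36l2 (0.577 ± 0.0755) and Edc3 (0.0996 ± 0.0717). The order in Drp1_KO mice kept the same 7 genes on top, with Dazl before Zar1 and Cnot7 before Pabpn1l. The length is the union of all annotated exons, so long isoforms that oocytes do not use lower a gene's value.

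**Figure D1:**
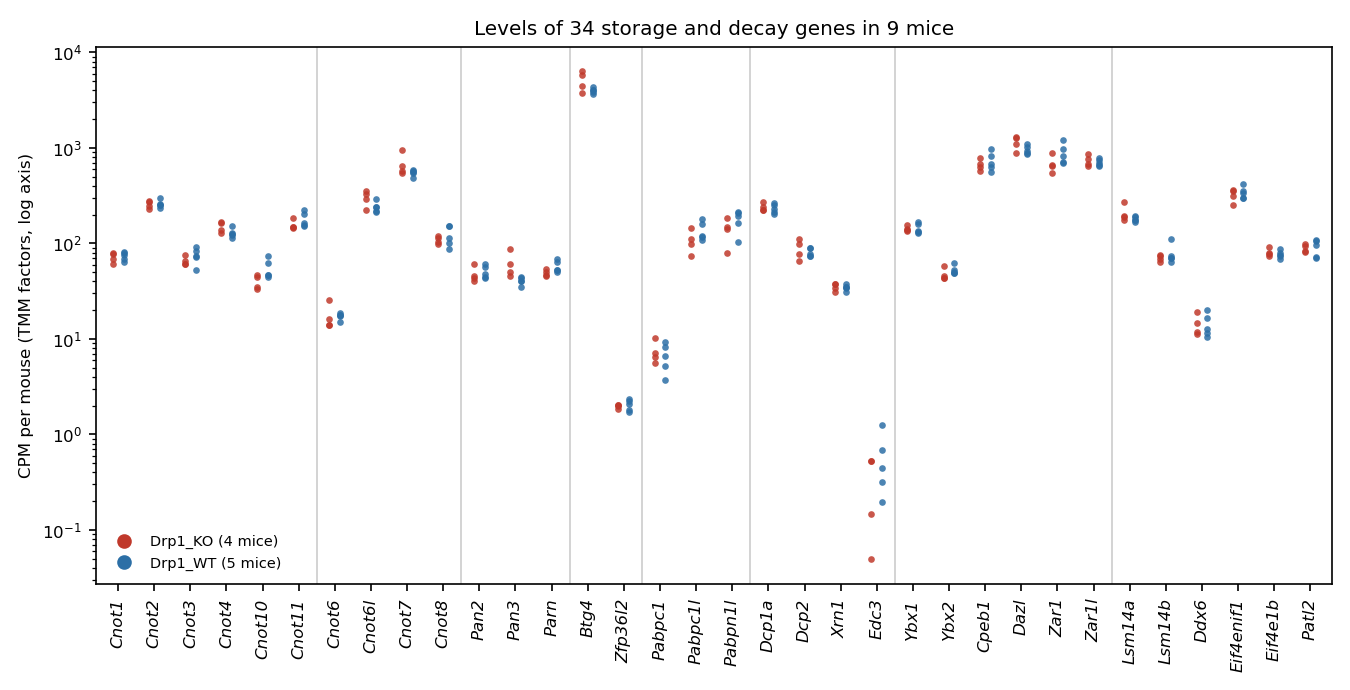
Level of each of the 34 genes that passed the filter, in CPM with TMM factors on a log axis, by mouse. Red points are the 4 Drp1_KO mice (mouse b with tube 10), blue points the 5 Drp1_WT mice, and grey lines part the roles from the CCR4-NOT scaffold (left) to the repressors (right). Btg4 lies between 3653 and 6329 CPM and Edc3 between 0.0492 and 1.25 CPM, and the mice of both labels overlap for every gene but Pan3.

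Pabpc1l, the embryonic poly(A)-binding protein, held 50.7 ± 11.7 CPM per kilobase in Drp1_WT mice while Pabpc1, its general relative, held 1.01 ± 0.345, without overlap. Ybx2, the germ-cell Y-box protein, held 27.9 ± 3.02 and the general Ybx1 held 57.4 ± 6.79. Of the RNA helicase Ddx6, central to repression granules, there was 1.78 ± 0.509, against 29.6 ± 1.61 for its partner Lsm14a, 27.03 ± 6.42 for Lsm14b and 54.05 ± 7.88 for Eif4enif1, the 4E-T adaptor. Eif4e1b, an oocyte form of the cap-binding protein, held 34.005 ± 2.91, and Patl2, an oocyte RNA-binding protein, held 37.3 ± 7.49. Zfp36l1, which binds AU-rich elements and recruits the deadenylase, had 20 counts in all, in 11 of 36 libraries, and was not tested. Its relative Zfp36l2 had a count in all 36 libraries, at 1.29 to 3.26 CPM in Drp1_WT oocytes.

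Pan3 was the sole one of the 34 tested genes whose mice did not overlap between the labels, and 0 of the 34 passed an adjusted p of 0.05. In either direction 2.56% of all genes tested did not overlap, so 1 of 34 is near the general share. PAN3 is the regulatory partner of the PAN2 deadenylase, which trims long tails. Pan3 (ENSMUSG00000029647, chromosome 5, 147430161 to 147548502, plus strand) stood at 61.3, 87.9, 45.2 and 50.1 CPM in mice a to d, and 40.5, 43.8, 40.7, 44.01 and 34.9 CPM in mice 1 to 5. All 4 Drp1_KO mice were above the highest Drp1_WT mouse, mouse c narrowly so, which holds for 1.27% of all genes tested. The means were 61.1 ± 19.1 against 40.8 ± 3.68 CPM (SD, n = 4 and 5; log2 fold change 0.58, SE 0.17, edgeR adjusted p = 0.471). Mouse b carried the highest value, and without tube 10 it stood at 60.9 CPM. The log2 fold change was then 0.41 (SE 0.12, edgeR adjusted p = 0.499) and the mice still did not overlap. Single oocytes overlapped, at 32.2 to 82.1 CPM in the other 17 Drp1_KO libraries and 32.4 to 57.2 CPM in the 18 Drp1_WT libraries. Its catalytic partner Pan2 stood at 47.7 ± 9.48 against 50.7 ± 7.56 CPM and Parn, a separate poly(A)-specific nuclease, at 49.3 ± 3.78 against 57.4 ± 7.83 CPM. Without tube 10 these were 43.9 ± 2.68 against 51.1 ± 7.61 CPM for Pan2 and 50.7 ± 3.64 against 57.8 ± 7.88 CPM for Parn.

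Over all 12812 genes tested, 0.0156% passed the adjusted threshold and 2.56% had mice that did not overlap, against 0 of 34 and 1 of 34 here. At an unadjusted p under 0.05 there were 3 higher (Pan3, Btg4 and Cnot6l) and 1 lower (Cnot10) among the 34, against 4.89% higher and 4.81% lower over all genes. The median log2 fold change was -0.03 here and -0.00 over all genes, with 14 of 34 values above 0, against 49.4% of all genes. These counts lean on tube 10: without it 1 gene was higher (Pan3) and 1 lower (Cnot10), against 3.79% and 4.76% of all genes, 10 of 34 values were above 0, against 47.9%, and 6 genes changed sign. Over all alternatives the number at an unadjusted p under 0.05 ran from 1 to 9. DESeq2 and limma-voom on single libraries also called 0 of the 34. The median SE of the 34 fold changes was 0.15 on the log2 scale. A simulation of 4 against 5 mice ran 12801 genes, of which a few were changed. It recovered 40.3% of 67 genes changed 1.5-fold and 97.0% of 67 changed 2-fold, so differences near 1.5-fold could be missed. The changed genes were drawn above a minimum level, so the rates do not cover low genes such as Edc3, Zfp36l2 and Pabpc1. The simulated mice held no library like tube 10 and no effect of tube sets.

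**Figure D2:**
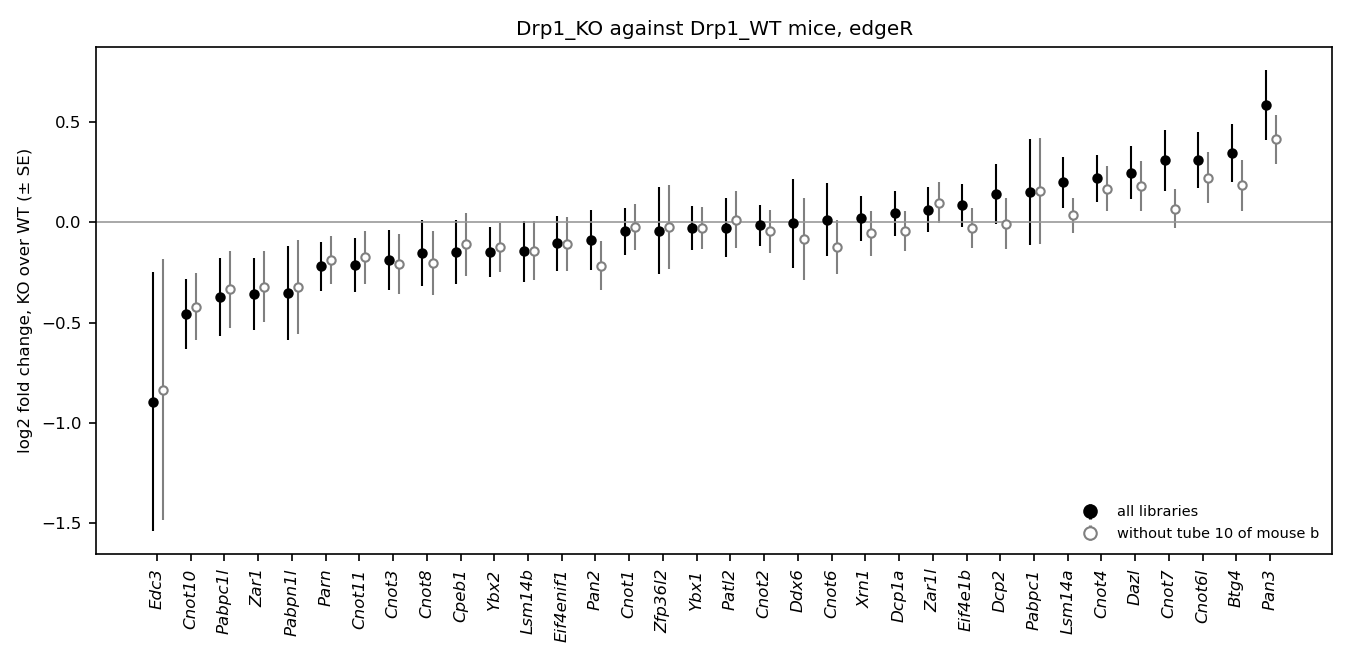
Log2 fold change of Drp1_KO over Drp1_WT mice by edgeR for the 34 tested genes, in order of size. Points are estimates and bars ± 1 SE, black with all libraries and grey open without tube 10 of mouse b. Pan3 is highest at 0.58 with all libraries and 0.41 without tube 10, and Edc3, which has few counts, is lowest at -0.89.

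The adaptor Btg4 and the CCR4-NOT deadenylases Cnot6l and Cnot7 had log2 fold changes above 0 that did not pass the test and rested in part on tube 10. Btg4 (ENSMUSG00000032056, chromosome 9, 51060901 to 51119875, plus strand) stood at 4489, 6329, 3722 and 5794 CPM in mice a to d, and 3653, 3851, 4082, 4064 and 4364 CPM in mice 1 to 5. Mice a, b and d lay above every Drp1_WT mouse and mouse c within them, as was mouse b without tube 10. The means were 5083 ± 1192 against 4003 ± 267 CPM (SD, n = 4 and 5; log2 fold change 0.34, SE 0.15, edgeR adjusted p = 0.508). Without tube 10 mouse b stood at 4222 CPM, and the log2 fold change was 0.18 (SE 0.13, edgeR adjusted p = 0.657), little more than its SE. Cnot6l, a deadenylase of the CCR4 type, stood at 288, 354, 223 and 328 CPM in mice a to d, and 211, 293, 239.6, 240.1 and 219 CPM in mice 1 to 5. Mice b and d lay above every Drp1_WT mouse, and mouse a lay within them, just under mouse 2. Without tube 10 mouse b, at 286 CPM, was also under it. The means were 298 ± 56.8 against 241 ± 31.9 CPM (log2 fold change 0.31, SE 0.14, edgeR adjusted p = 0.508), and without tube 10 the log2 fold change was 0.22 (SE 0.13, edgeR adjusted p = 0.620).

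Cnot7, the main deadenylase of the CAF1 type here, stood at 579, 955, 541 and 649.6 CPM in mice a to d, and 569.8, 484, 563, 580.3 and 552 CPM in mice 1 to 5. Mouse b stood far above the rest and mouse d above every Drp1_WT mouse, while mouse a and mouse c lay among them. The means were 681 ± 188 against 549.7 ± 38.3 CPM (log2 fold change 0.31, SE 0.15, edgeR adjusted p = 0.523). Without tube 10 the log2 fold change was 0.07 (SE 0.10, edgeR adjusted p = 0.828), so 1 library made most of the difference. The paralogs Cnot6 (17.5 ± 5.56 against 17.3 ± 1.39 CPM) and Cnot8 (109 ± 9.09 against 121 ± 30.2 CPM) had log2 fold changes of 0.01 and -0.15, and of -0.12 and -0.20 without tube 10, which turned the sign of Cnot6. Tube 10, with the immune and oocyte markers given above, is part of the Drp1_KO means of all these genes. What those markers have to do with the result was not tested.

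Of the scaffold of CCR4-NOT and its accessory subunits 0 of 6 passed the test, and 1 of 6 log2 fold changes was above 0, against 49.4% of all genes. Those of Cnot1 (-0.05) and Cnot2 (-0.02) were smaller than their SE. Cnot10, which with Cnot11 docks on the end of the Cnot1 scaffold, stood at 45.03, 34.7, 46.6 and 33.02 CPM in mice a to d, and 74.2, 46.8, 46.7, 61.7 and 44.4 CPM in mice 1 to 5. Mouse 1 and mouse 4 were high, the remaining Drp1_WT mice lay among mice a and c, and mice b and d were low. The means were 39.9 ± 6.96 against 54.8 ± 12.9 CPM (SD, n = 4 and 5; log2 fold change -0.46, SE 0.17, edgeR adjusted p = 0.499), and without tube 10 the log2 fold change was -0.42 (SE 0.17, edgeR adjusted p = 0.562). Without the 5 Drp1_WT libraries of tubes 11 to 15 it was -0.34. Cnot11 stood at 156 ± 18.1 against 181 ± 32.1 CPM, Cnot3, a NOT-box subunit, at 65.5 ± 6.65 against 74.6 ± 14.7 CPM, and Cnot1, the scaffold, at 71.3 ± 8.75 against 73.7 ± 7.24 CPM. Cnot2, the other NOT-box subunit, stood at 256 ± 19.6 against 259 ± 24.1 CPM. Cnot4, a ubiquitin ligase loosely tied to the complex, was the exception with a log2 fold change of 0.22 (149.6 ± 18.9 against 129 ± 14.8 CPM). Cnot3 shares 433 exon bases with Leng1 on the opposite strand, and counts of the pair cannot be told apart there.

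**Figure D3:**
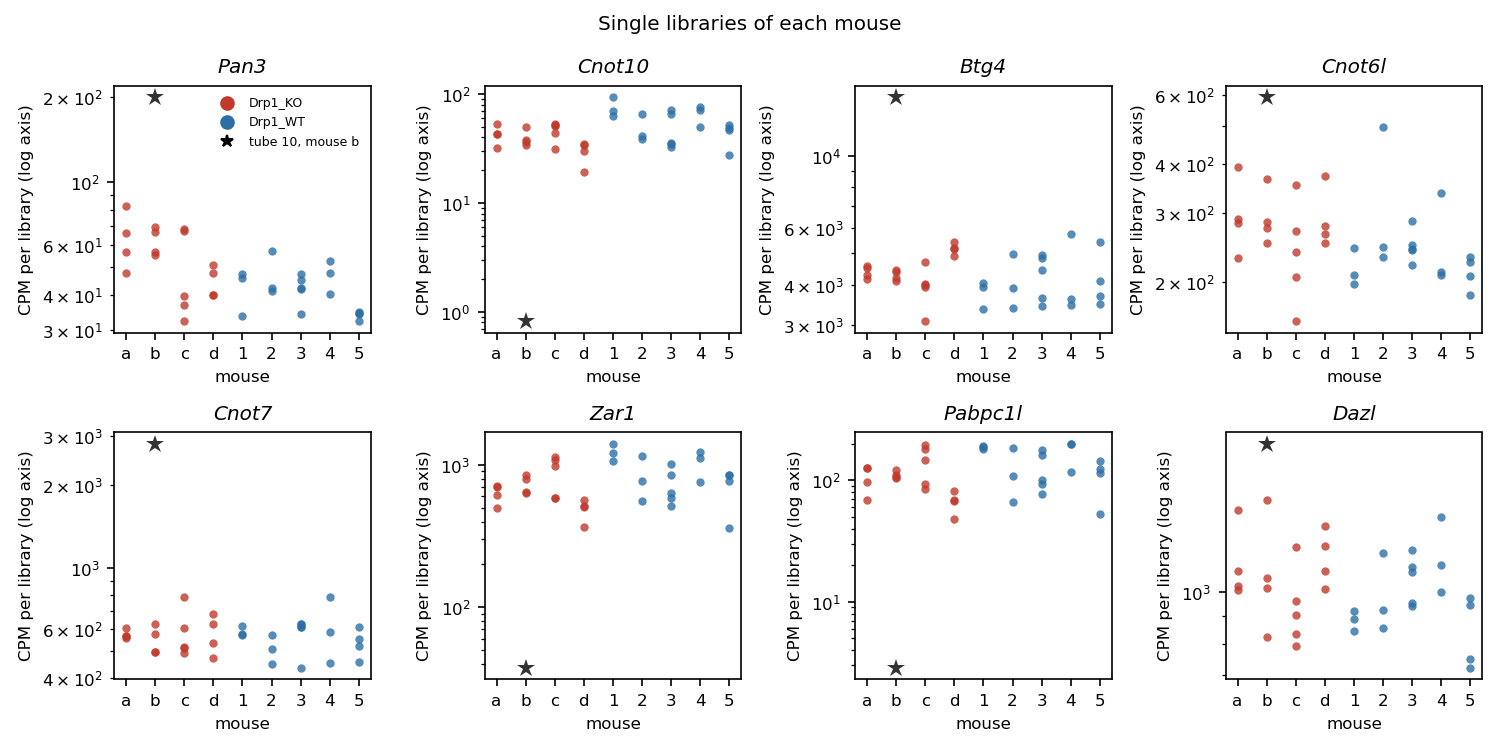
CPM per library on a log axis for the 8 tested genes with the smallest edgeR p, by mouse. Red points are Drp1_KO libraries, blue points Drp1_WT libraries, and the black star is tube 10 of mouse b. The star is the highest point in Pan3, Btg4, Cnot6l, Cnot7 and Dazl and the lowest in Cnot10, Zar1 and Pabpc1l, where it stands at 0.817, 37.6 and 2.86 CPM.

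Among storage proteins and poly(A)-binding proteins 0 of 9 passed the test. Mouse 1 was the highest of all mice in 5 of the 9, against 22.7% of all genes, though for Pabpn1l only by 210.9 against 210.7 CPM in mouse 2. Zar1, which gathers stored mRNA around mitochondria in the oocyte, stood at 660.2, 653, 888 and 546 CPM in mice a to d, and 1204, 813, 701, 971 and 713 CPM in mice 1 to 5. Mouse 1 was highest and mouse d lowest, with mouse c among the upper Drp1_WT mice. The means were 687 ± 144 against 880.3 ± 211 CPM (SD, n = 4 and 5; log2 fold change -0.36, SE 0.18, edgeR adjusted p = 0.525). Its relative Zar1l was even across mice, at 739 ± 93.7 against 708 ± 56.3 CPM. Pabpc1l stood at 112, 97.5, 143 and 73.9 CPM in mice a to d, and 182, 118, 119, 161 and 109 CPM in mice 1 to 5, again with mouse 1 highest and mouse d lowest. The means were 107 ± 29.1 against 138 ± 31.8 CPM (log2 fold change -0.37, SE 0.20, edgeR adjusted p = 0.535). Without tube 10 the log2 fold changes of Zar1 and Pabpc1l were -0.32 (SE 0.18, edgeR adjusted p = 0.606) and -0.33 (SE 0.19, edgeR adjusted p = 0.620). Pabpn1l, an oocyte poly(A)-binding protein that works with BTG4, stood at 138 ± 42.9 against 177 ± 45.03 CPM (log2 fold change -0.35, -0.32 without tube 10), with mouse d at 79.8 and mouse 5 at 103 CPM the lowest of their labels. Pabpc1 stood at 7.36 ± 2.07 against 6.63 ± 2.25 CPM (0.15 and 0.15 likewise).

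Dazl, a germ-cell RNA-binding protein that promotes translation, stood at 1110.0, 1262, 881 and 1298 CPM in mice a to d, and 857, 929, 1024, 1105 and 878 CPM in mice 1 to 5. Mice a, b and d lay above all Drp1_WT mice, mouse a by under 5 CPM, and mouse c was low. Without tube 10 mouse b, at 1062 CPM, lay within the Drp1_WT mice. The means were 1138 ± 189.7 against 959 ± 104 CPM (log2 fold change 0.25, SE 0.13, edgeR adjusted p = 0.536), and without tube 10 the log2 fold change was 0.18 (SE 0.12, edgeR adjusted p = 0.657). Cpeb1, which binds the element shown above, stood at 663 ± 91.9 against 735 ± 170.0 CPM, Ybx1 at 142 ± 8.74 against 145 ± 17.2 CPM and Ybx2 at 47.4 ± 6.91 against 52.6 ± 5.69 CPM. Their log2 fold changes were -0.15, -0.03 and -0.15, and -0.11, -0.03 and -0.12 without tube 10.

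Repressors and decapping factors had log2 fold changes within 0.20 of 0, apart from Edc3, and tube 10 set the sign of several. Without it Lsm14a went from 0.20 to 0.03 (187 ± 6.93 against 183 ± 9.97 CPM), and Dcp2 (0.14 to -0.01), Dcp1a (0.04 to -0.04), Xrn1 (0.02 to -0.06), Eif4e1b (0.08 to -0.03) and Patl2 (-0.03 to 0.01) changed sign. With all libraries Lsm14a stood at 208 ± 43.3 against 181 ± 9.90 CPM, Lsm14b at 70.7 ± 5.43 against 78.2 ± 18.6 CPM, Eif4enif1 at 319.9 ± 50.6 against 344 ± 50.2 CPM, Eif4e1b at 81.2 ± 7.91 against 76.7 ± 6.57 CPM and Patl2 at 89.2 ± 8.90 against 90.9 ± 18.2 CPM (SD, n = 4 and 5). Ddx6 stood at 14.2 ± 3.61 against 14.3 ± 4.09 CPM. Dcp1a, the decapping activator, stood at 239.6 ± 23.5 against 233 ± 26.3 CPM, Dcp2, the decapping enzyme, at 88.6 ± 20.7 against 80.5 ± 7.99 CPM, and Xrn1, the exonuclease that follows it, at 35.04 ± 3.08 against 34.6 ± 2.41 CPM. Edc3, an enhancer of decapping, had 102 counts in all and stood at 0.310 ± 0.248 against 0.578 ± 0.416 CPM, too few for a firm fold change (log2 -0.89, SE 0.64). Edc3 shares 1284 exon bases with Clk3 on the opposite strand, which has 13470 counts.

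Within tubes 1 to 15 (3 against 4 mice) the 8 genes with the smallest p kept the direction of their fold changes, and so did mouse d against mouse 5 in tubes 27 to 30. Pan3 had a log2 fold change of 0.62 within tubes 1 to 15 and 0.51 for mouse d over mouse 5, Btg4 of 0.31 within tubes 1 to 15 and 0.41 for mouse d over mouse 5 and Cnot10 of -0.44 within tubes 1 to 15 and -0.42 for mouse d over mouse 5. Cnot6l had 0.23 within tubes 1 to 15 and 0.58 for mouse d over mouse 5, Cnot7 0.34 within tubes 1 to 15 and 0.23 for mouse d over mouse 5 and Dazl 0.15 within tubes 1 to 15 and 0.56 for mouse d over mouse 5. Zar1 had -0.32 within tubes 1 to 15 and -0.38 for mouse d over mouse 5, and Pabpc1l -0.30 within tubes 1 to 15 and -0.56 for mouse d over mouse 5. In all, 32 of the 34 tested genes kept their sign within tubes 1 to 15 and 25 of 34 between mouse d and mouse 5, where 1 mouse a label allows no test. These mice are also in the pooled fit, so the values are not independent of it. The 8 genes were picked by their p in that fit, which favours a shared direction. The values within tubes 1 to 15 include tube 10 of mouse b. Without that library the pooled log2 fold change of Cnot7 fell from 0.31 to 0.07.

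Ratios within 7 pairs of related genes, which depend little on how libraries are scaled except at low levels, passed the threshold in 0 of 7 cases after adjustment over the 7. Each is the mean over a mouse's oocytes of the log2 ratio of (CPM + 1), compared by exact permutation of the labels over the 9 mice (two-sided), where p cannot go below 0.0159. The balance of the CCR4-type deadenylases, Cnot6l over Cnot6, was 4.29, 3.84, 3.96 and 4.27 in mice a to d and 3.77, 3.99, 3.73, 3.59 and 3.56 in mice 1 to 5. Mice a and d lay above all Drp1_WT mice, and mouse b and mouse c below mouse 2 and above the remaining Drp1_WT mice. The means were 4.09 ± 0.22 against 3.73 ± 0.17 (difference 0.36, exact permutation p = 0.0476, adjusted p = 0.296), and without tube 10 the difference was 0.38 (exact permutation p = 0.0476, adjusted p = 0.333). For the CAF1-type pair, Cnot7 over Cnot8, the means were 2.56 ± 0.17 against 2.22 ± 0.31 (difference 0.34, exact permutation p = 0.127, adjusted p = 0.296), with mouse 1 and mouse 4 at 1.90 and 1.87 below all others. Pabpc1l over Pabpc1 gave 3.59 ± 0.76 against 4.25 ± 0.44 (difference -0.65, exact permutation p = 0.175, adjusted p = 0.302), Zar1 over Zar1l gave -0.12 ± 0.42 against 0.24 ± 0.44 (difference -0.37, exact permutation p = 0.254, adjusted p = 0.302), and Lsm14b over Lsm14a gave -1.51 ± 0.35 against -1.24 ± 0.26 (difference -0.27, exact permutation p = 0.270, adjusted p = 0.302). Ybx2 over Ybx1 gave -1.64 ± 0.27 against -1.48 ± 0.16 (difference -0.16, exact permutation p = 0.302, adjusted p = 0.302) and Zfp36l2 over Zfp36l1, a pair with few counts, 1.33 ± 0.29 against 1.55 ± 0.10 (difference -0.22, exact permutation p = 0.127, adjusted p = 0.296). Without tube 10 the differences were 0.25 for Cnot7 over Cnot8, -0.43 for Pabpc1l over Pabpc1, -0.42 for Zar1 over Zar1l, -0.14 for Lsm14b over Lsm14a, -0.09 for Ybx2 over Ybx1 and -0.13 for Zfp36l2 over Zfp36l1, all but that of Zar1 over Zar1l smaller than with it.

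**Figure D4:**
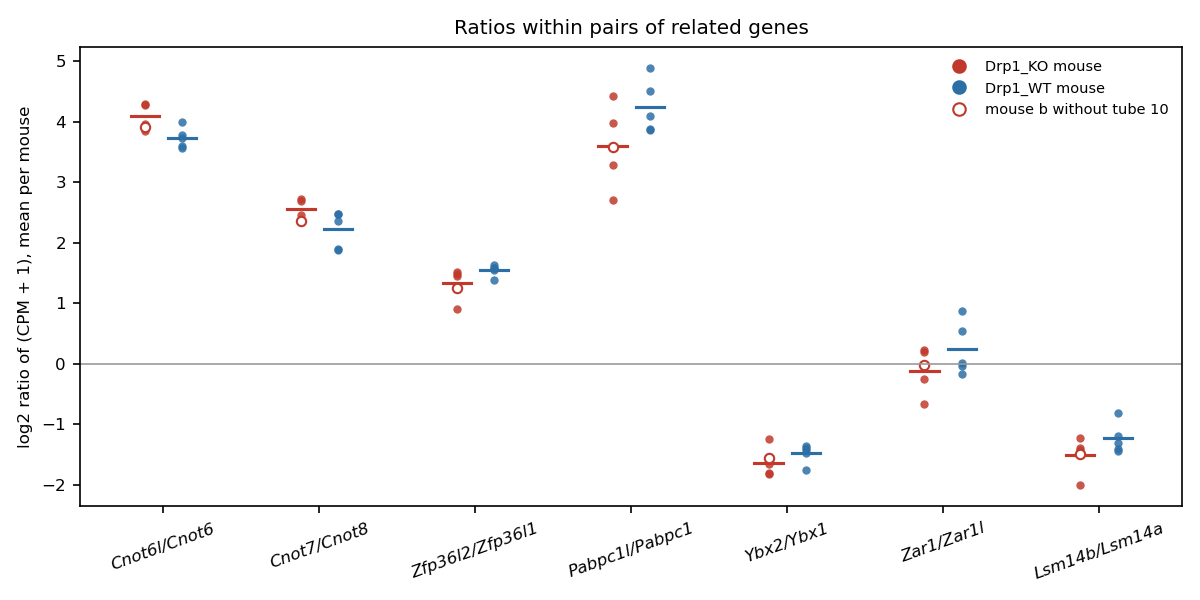
Mean log2 ratio of (CPM + 1) within 7 pairs of related genes, by mouse. Red points are Drp1_KO mice, blue points Drp1_WT mice, short lines the group means, and the open circle is mouse b without tube 10. The labels overlap in every pair; Cnot6l over Cnot6 is 4.09 against 3.73, and mouse b moves from 2.70 to 3.59 for Pabpc1l over Pabpc1 when tube 10 is left out.

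Oocytes of 1 mouse varied little in some of these genes and widely in others. Without tube 10 the SD of log2(CPM + 1) among oocytes of the same mouse had a median of 0.24 over the 33 genes with a mean of at least 1 CPM, from 0.17 in Lsm14a to 0.77 in Pabpc1, and was below the median of like-level genes, those in the same decile of mean level, in 13 of 33. Lsm14a, Zar1l (0.17), Eif4e1b (0.18) and Ybx1 (0.18) were the steadiest. Patl2 (0.52), Pabpc1l (0.47), Pabpn1l (0.44) and Zar1 (0.39) varied more than like-level genes, whose medians were 0.25, 0.23, 0.23 and 0.20. Between mice of a label, Pabpn1l (0.58) and Pabpc1l (0.41) spread most and Zar1l (0.07) and Cnot7 (0.08) least. With all libraries, mouse 1 was the highest of the 9 mice in 11 of 34 genes and mouse b in 11, against 22.7% and 15.7% of all genes, and mouse d was the lowest in 11, against 21.1%. These are descriptions with no test.

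In tube 10 of mouse b the deadenylases and decapping factors were mostly above every other library and the storage and poly(A)-binding proteins mostly below. Over all 11512 genes with a mean of at least 1 CPM, 15% lay above and 46.8% below every other library there. Of the 35 genes 14 lay above, 14 below and 7 within, and of the 33 with a mean of at least 1 CPM 13 lay above and 14 below. The roles were joined into these sets for this description, and the joining was not set in advance. The repressors, which also act on stored mRNA, are outside both sets, with 2 above, 2 below and 2 within. The CCR4-NOT scaffold and accessory subunits, also outside, had 1 above, 3 below and 2 within. In no other library were more than 4 of the 35 above or more than 4 below. This is 1 library, with no replicate and no test, and its CPM are shares of a pool in which its other genes moved too. The 35 genes took 2.37% of its counts, against 0.904% to 1.36% in the other libraries.

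The tail-removing and decapping genes were above the other 35 libraries in 8 of 11 cases. Cnot7 stood at 2811 CPM against 435, 570.3 and 786 CPM as the lowest, median and highest of the other libraries. Pan3 stood at 199.7 CPM against 32.2 to 82.1 CPM, Dcp2 at 249.5 CPM against 49.8 to 134 CPM and Cnot6 at 49.2 CPM against 8.81 to 26.5 CPM, and Pan2, Cnot6l, Dcp1a and Xrn1 were also above. Parn was below, at 6.95 CPM against 34.6 to 81.3 CPM, and Cnot8 and Edc3 lay within. The adaptor Btg4 stood at 15222 CPM against 3082, 4169 and 5758 CPM, 3.65 times the median. Among repressors, Lsm14a (642 CPM against 151 to 258 CPM) and Eif4e1b (184 CPM against 51.5 to 100.0 CPM) were above, and Ddx6 and Eif4enif1 within. Zfp36l1 had 6 of its 20 counts in this library.

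The storage and poly(A)-binding genes were below the others in 7 of 9 cases. Zar1l stood at 17.6 CPM against 585, 735 and 946 CPM as the lowest, median and highest of the other libraries, 41.8 times less than the median. Cpeb1 stood at 27.996 CPM against 359.8 to 1031 CPM, Zar1 at 37.6 CPM against 363 to 1408 CPM and Pabpc1l at 2.86 CPM against 47.7 to 199.8 CPM. Pabpn1l, Ybx2 and Ybx1 were also below, the last by a margin of 90.1 against 90.3 CPM. Dazl was the exception, above the others at 1887 CPM against 721 to 1484 CPM, and Pabpc1 lay within. Under other scalings (thinned counts, no mitochondrial genes, TMM factors) 6 or 7 of these 9 stayed below, Ybx1 being the gene that moved within. There 8 or 9 of the 11 tail-removing and decapping genes lay above. Of all genes 38.6% to 45.4% lay below and 14.6% to 26.1% above under these scalings. Outside these roles, Patl2 (1.43 CPM against 43.5 to 199 CPM), Cnot11 (3.68 CPM against 109 to 249 CPM) and Cnot10 (0.817 CPM against 19.4 to 93.6 CPM) were as low, with 7, 18 and 4 counts. Cnot1, the scaffold, and Lsm14b and Zfp36l2 were below and Cnot4 above, and Cnot2 and Cnot3 lay within. CCR4-NOT subunits did not move as a unit in this library.

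**Figure D5:**
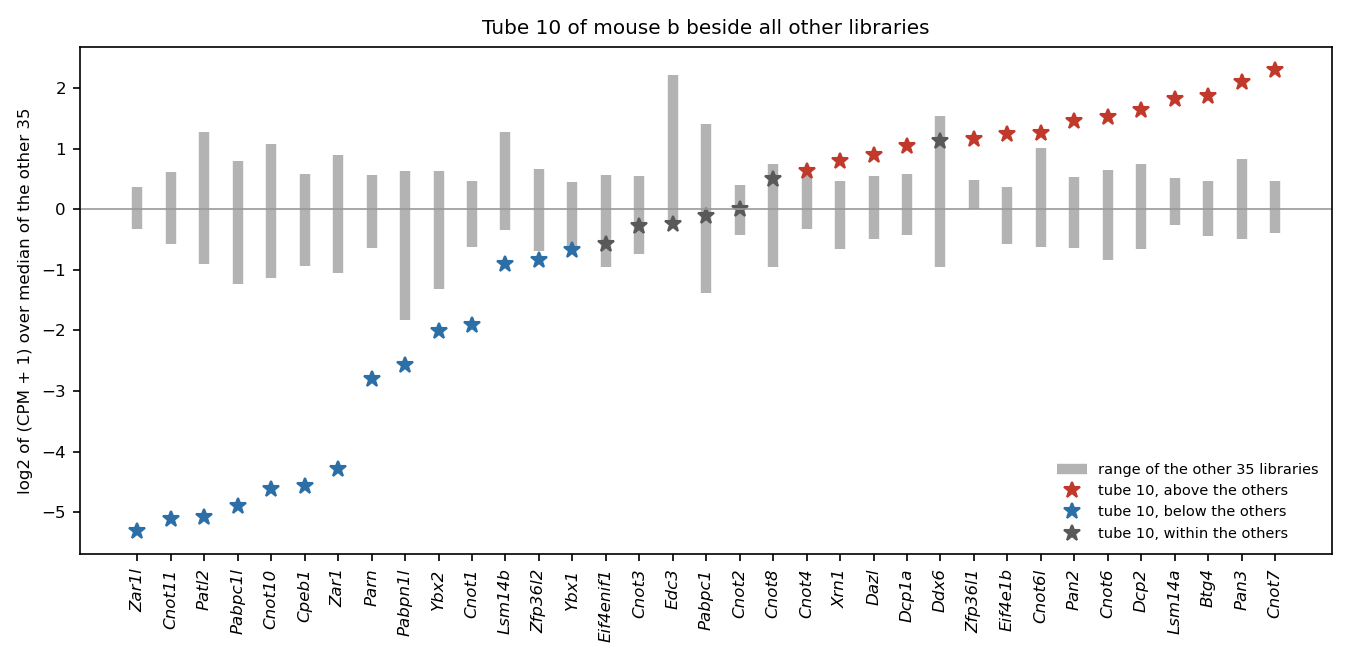
Level in tube 10 of mouse b for the 35 genes, as log2 of (CPM + 1) over the median of the other 35 libraries plus 1. Stars are tube 10, red above, blue below and grey within the range of the other libraries, which the grey bars show on the same scale. Values run from -5.31 in Zar1l to 2.30 in Cnot7.

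Genes with the CPEB1 element near their reference 3′ end had a higher median level in tube 10, relative to the other libraries, than those without it. The median log2 ratio of the 11 with the element was 1.05, and 7 of them were above 0, the 6 whose windows are shown first and Xrn1. Ybx2, Cnot1, Ybx1 and Cnot3 have the element and had ratios below 0, at -2.01, -1.91, -0.67 and -0.27. The median of the 22 without it was -0.41, and 9 of them were above 0. Over all genes with a mean of at least 1 CPM the medians were -0.38 for 2396 genes with the element and -0.96 for 8458 without it. Of these, 987 with the element and 2372 without it were above 0. Cnot6l and Dcp2 rank among the highest without the element in their last 120 bases. The search was made after the values of tube 10 were known, it was not tested, and base composition was not matched. Tail lengths were not measured either, and whether they bear on the counts of genes with and without the element was not tested.

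Other genes of mRNA decay, tailing and RNA binding were listed by function, 129 in 7 groups, and 124 were tested. Of these 0 passed an adjusted p of 0.05 by edgeR, with 6 higher and 5 lower at an unadjusted p under 0.05 (8.87%, against 9.69% of all genes) and a median log2 fold change of 0.01. Samd4, a Smaug-type repressor that recruits the deadenylase, had the smallest p at 1.00, 0.522, 0.993 and 1.03 CPM in mice a to d, and 1.44, 2.03, 1.81, 1.78 and 3.01 CPM in mice 1 to 5. The Drp1_KO mice all lay below the Drp1_WT mice, at a low level (log2 fold change -1.19, SE 0.32, edgeR adjusted p = 0.471). Upf1, the helicase of nonsense-mediated decay, stood at 28.9 ± 4.34 against 38.9 ± 7.02 CPM (log2 fold change -0.42, SE 0.15, edgeR adjusted p = 0.499), with overlap. Pelo, a ribosome rescue factor, stood at 4.65 ± 0.484 against 6.38 ± 1.24 CPM (log2 fold change -0.46, SE 0.19, edgeR adjusted p = 0.499), without overlap, and Fxr2, a relative of the fragile X protein, at 10.4 ± 3.07 against 15.7 ± 4.39 CPM (log2 fold change -0.60, SE 0.24, edgeR adjusted p = 0.499). Tent2, a cytoplasmic poly(A) polymerase named after its values were seen, was the other gene without overlap, at 37.3 ± 4.45 against 31.05 ± 0.615 CPM, which makes 3 of 124 against 2.56% of all genes.
The group medians were -0.06 for the exosome (17 tested), 0.11 for other decapping and Lsm factors (14), 0.09 for poly(A)-binding and cap partners (13), -0.05 for poly(A) polymerases and cleavage factors (22), 0.02 for RNA-binding regulators (37), -0.10 for other deadenylation factors (11) and -0.06 for nonsense-mediated decay (10).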

How the data were processed

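Whole lysates of single oocytes went into SMARTer Ultra Low Input cDNA synthesis and Nextera XT libraries, read from 1 end by HiSeq, per the labels' protocols. Named in the submitters' processing notes are featureCounts (Subread 1.5.2), STAR, Picard and the GRCm38 build. Not given in the sources used here: strand setting, treatment of multi-mapping reads, annotation release. The authors deposited raw counts of 21968 genes in 36 oocytes, whole numbers with no molecular identifiers named.

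Of these IDs, 21876 matched GENCODE M21. Depth is the total count of each library, 3178509 to 7406895. Counts were summed per mouse and tested over the whole table with edgeR 4.0.16 in R 4.3.3 (TMM factors, filter on low counts by genotype, robust quasi-likelihood fit), with Benjamini-Hochberg adjustment over the 12812 genes left. Samples were grouped by the genotype label. Fold changes are given for the 8 genes with the smallest p, those past the threshold, Btg4 and those whose labels do not overlap. Other members have means, and some fold changes for their role. Further genes of the pathway are named by the 4 smallest p. Ratios used log2(CPM + 1) and scipy 1.17.1. Alternatives were DESeq2 1.42.0, limma-voom 3.58.1 with mouse as random effect, other scaling and filters, tube sets and libraries or mice left out. The scripts were tested on simulated data, where edgeR made 12 false calls among 170. The genes and lists were chosen with earlier results of these data known.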

Additional observations from a re-analysis of the deposited data

Results flagged for a closer look

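In a search for a mouse that stands far from the others of its label, by its gap relative to the whole range at the 95% level, 2 of 30 groups of mice stood out; chance alone picks about 1 in 20. Cnot7 in Drp1_WT mice was lowest in mouse 2, at 484 CPM, with the next mouse at 552 CPM. The log2 ratio of Zfp36l2 over Zfp36l1 in Drp1_KO mice was lowest in mouse b, at 0.90, with the next at 1.44; without tube 10 mouse b stood at 1.24.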

How the results depend on the processing

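None of the 34 tested genes, of the 124 other genes and of the 7 pair ratios passed the threshold under any alternative run, and the 8 named fold changes kept their direction under each of them. Over the alternatives and the main fit, log2 fold changes ran 0.36 to 0.71 for Pan3, 0.11 to 0.48 for Btg4, 0.17 to 0.43 for Cnot6l, 0.03 to 0.41 for Cnot7, 0.15 to 0.36 for Dazl, -0.55 to -0.30 for Cnot10, -0.50 to -0.22 for Zar1 and -0.54 to -0.20 for Pabpc1l. The lowest values of Btg4, Cnot6l and Cnot7 came with tube 10 and Drp1_WT tubes 11 to 15 both left out, an alternative added once the data had been seen. Over all genes, the number past the threshold was 2 by edgeR, 37 by DESeq2, 9 by limma-voom, 4 within tubes 1 to 15 and 1 to 3 with a mouse left out. In tube 10, Zfp36l1, Zfp36l2, Ybx1, Cnot2, Cnot8 and Ddx6 changed place under at least 1 scaling. Under 4 ways of scaling, 13 to 17 of the 35 genes lay above and 12 to 14 below all other libraries. The share of all genes ran from 14.6% to 26.1% above and from 38.6% to 46.8% below. No paired analysis was possible because mice carry letters under 1 label and numbers under the other.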

Other observations

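In the 5 Drp1_WT libraries of tubes 11 to 15, which hold little Dnm1l, 0 of the 35 genes lay wholly above or wholly below the other 13 Drp1_WT libraries, while 0.408% and 0.148% of all genes with a mean of at least 1 CPM did. At shares this low, 0 of 35 does not set these genes apart. Btg4 ranged from 3429 to 5758 CPM in the 5 libraries and from 3362 to 5444 CPM in the others. In tubes 11, 12 and 13 Ddx6 stood at 35.96, 34.02 and 36.5 CPM, against at most 17.2 CPM in the other 13. Patl2 stood at 189, 154 and 199 CPM there, against at most 114 CPM, and Pabpc1 at 13.3, 13.05 and 18.9 CPM, against at most 9.69 CPM. Tubes 14 and 15 lay within the other 13 for these 3 genes, which were picked by their values and not tested.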
